A study of Homo sapiens with 18 samples.

Results

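EAF2, LYPD3, MFSD2A and UNC13A are 4 of the 28266 gene rows in a count table of human fibroblasts, and all 4 passed the filter on low counts that left 14341 genes for testing. They were picked by name as genes strongly raised by inhibitors of N-myristoyltransferase (NMT) in either senescent or non-senescent control cells. The choice did not record the state for each gene. From an earlier account of these data, EAF2 and LYPD3 were taken as chosen for their rise in senescent cells. MFSD2A and UNC13A were taken as chosen for their rise in control cells. The independence of the tests below from the choice rests on this reading. The rise in the state that chose a gene is therefore described without a test, and the test is kept for the same gene in the other state. The question is how far the rise of each gene differed between control and senescent cells.

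The cells were IMR90 ER:RAS, human lung fibroblasts that carry oncogenic RAS fused to the oestrogen receptor. With this construct, 4-hydroxytamoxifen (4OHT) switches RAS on and drives oncogene-induced senescence. All 6 groups carried the ER:RAS construct and had 3 RNA libraries each. Control cells received DMSO in place of 4OHT for 7 days and senescent cells received 100 nM 4OHT, and each was then given DMSO, IMP1088 at 300 nM or DDD86481 at 1.5 µM for 3 days and collected at day 10. Both inhibitors block NMT, the enzyme that attaches the fatty acid myristate to the N-terminal glycine of proteins and so helps them bind membranes. Their doses differed, so values for IMP1088 and DDD86481 are given side by side and were not tested against each other.

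The 4 genes have unrelated textbook roles. EAF2 encodes a partner of the ELL proteins, which help RNA polymerase II to elongate transcripts. LYPD3, also called C4.4A, encodes a cell surface protein of the LY6/uPAR family, is best known from squamous epithelium and binds laminins and AGR proteins. MFSD2A encodes a sodium-dependent transporter that carries lysophosphatidylcholine with docosahexaenoic acid into cells, and it is known from the endothelium of the blood-brain barrier. UNC13A encodes a priming factor for synaptic vesicles, known from neurons.

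In RefSeq on GRCh38.p14, EAF2 lies on the plus strand of chromosome 3 at 121835209 to 121886526, LYPD3 on the minus strand of chromosome 19 at 43460787 to 43465608, MFSD2A on the plus strand of chromosome 1 at 39955145 to 39969956, and UNC13A on the minus strand of chromosome 19 at 17601336 to 17688354. No exonic base of any of the 4 was shared with an exon of another gene in the annotation used here for GRCh37. The stretches just before the 4 start sites are shown because the genes share a rise with NMT inhibitors. They were read from RefSeq (GRCh38.p14), 5′ to 3′ on the strand of the gene, over chr3:121835061-121835208, chr19:43465609-43465858, chr1:39954895-39955144 and chr19:17688355-17688604. Capitals mark matches to the motifs searched. For EAF2 the 148 bases up to its neighbour IQCB1 are shown, and 250 bases for each of the others.
EAF2: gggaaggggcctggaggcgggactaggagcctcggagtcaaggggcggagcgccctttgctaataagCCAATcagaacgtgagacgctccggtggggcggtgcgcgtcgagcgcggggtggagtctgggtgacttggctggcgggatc
LYPD3: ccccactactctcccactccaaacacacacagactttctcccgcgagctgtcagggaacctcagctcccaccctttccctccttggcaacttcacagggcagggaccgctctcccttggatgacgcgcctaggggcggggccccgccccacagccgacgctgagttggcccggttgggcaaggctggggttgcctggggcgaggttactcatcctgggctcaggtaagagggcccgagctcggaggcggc
MFSD2A: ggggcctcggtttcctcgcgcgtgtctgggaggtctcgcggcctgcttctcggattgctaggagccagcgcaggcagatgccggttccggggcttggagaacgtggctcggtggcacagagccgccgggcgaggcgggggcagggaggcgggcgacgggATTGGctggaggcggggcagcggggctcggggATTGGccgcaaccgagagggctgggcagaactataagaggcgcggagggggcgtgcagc
UNC13A: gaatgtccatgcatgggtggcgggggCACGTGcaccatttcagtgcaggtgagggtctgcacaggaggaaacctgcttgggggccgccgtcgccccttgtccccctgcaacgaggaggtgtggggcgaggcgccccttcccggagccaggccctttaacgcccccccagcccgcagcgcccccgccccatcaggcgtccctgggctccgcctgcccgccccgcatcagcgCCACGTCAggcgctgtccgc

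The window from 250 bases before to 50 bases after each start was searched on both strands for 7 motifs of stress and growth factors. These were the CARE core TGATGNAA, the ERSE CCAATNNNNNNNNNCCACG, the UPRE core TGACGTGG, the CRE TGACGTCA, the AP-1 site TGANTCA, the E-box CACGTG and the CCAAT box, whose 5 letters also open the ERSE. EAF2 held 1 CCAAT box, 81 to 77 bases before its start. MFSD2A held 2, both on the minus strand and so written ATTGG above, at 91 to 87 and 59 to 55 bases before the start. The CCAAT box was in 34.6% of 35116 promoters of the same length. UNC13A held an E-box at positions -224 to -219 from the start, a motif in 7.26% of promoters, and a UPRE core on the minus strand at 20 to 13 bases before the start, a motif in 0.729%. No match to any of the 7 was found for LYPD3, and the CARE core (3.62% of promoters), the ERSE (0.0769%), the CRE (1.85%) and the AP-1 site (7.71%) matched none of the 4. These are matches of letters only. The 4 windows were rich in G and C, at 66%, 67%, 72% and 73% for EAF2, LYPD3, MFSD2A and UNC13A, above 69.6%, 72.2%, 84.2% and 86.4% of promoters.

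The libraries held between 16143716 and 23189950 counts. Levels are given as CPM (counts per 1000000 counts of the library, with TMM-scaled library sizes), and 3 counts corresponded to 0.121 to 0.187 CPM. The senescence genes followed the labels of the states: IL1B averaged 1.48 CPM in control and 6639 CPM in senescent cells with DMSO, CDKN1A 376 and 2126 CPM, and the proliferation gene MKI67 21.6 and 0.161 CPM. The 10 fibroblast markers were all above 1 CPM in every group, but DCN and LUM averaged 3042 and 314 CPM in control and 7.73 and 8.39 CPM in senescent cells with DMSO. Of the squamous keratins KRT5 and KRT14, no count was found in any library, which allows up to 0.187 CPM (3 counts in the library with the highest floor). Both belong to a list of 8 epithelial genes, and the rest of it was not absent. With DMSO the summed level was 106 to 150 CPM in control and 43.6 to 50.4 CPM in senescent cells. In control cells with DMSO, KRT18, KRT19 and KRT8 averaged 65.7, 31.3 and 23.6 CPM, and CLDN4 averaged 1.95 CPM against 10.05 CPM in senescent cells with DMSO. The library control DMSO replicate 3 stood apart: its chi-square per gene was 101 against replicate 1 and 51.2 against replicate 2, where that pair gave 16.4 and all pairs within the other groups 5.09 to 26.8. Values that rest on it are therefore also given without it. In bulk RNA, a change in the number of cells that express a gene and a change in RNA per cell cannot be told apart.

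**Figure D1:**
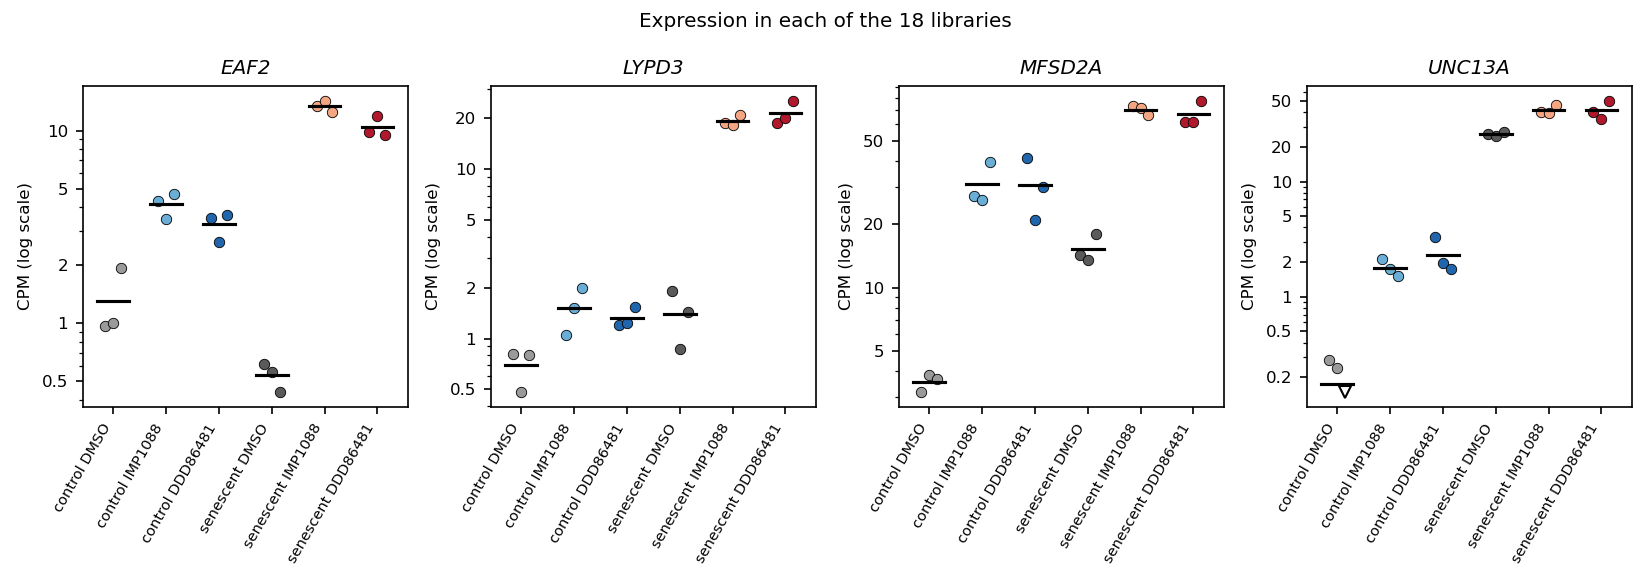
CPM of EAF2, LYPD3, MFSD2A and UNC13A (log axis) in the 18 libraries of 6 groups; points are libraries, bars are group means, and the open triangle is the control DMSO library without a UNC13A count, drawn at its floor of 3 counts (0.149 CPM). EAF2 and LYPD3 reach over 9 CPM only in senescent cells with an inhibitor, whereas UNC13A is already at 24.9 to 27.1 CPM in senescent cells with DMSO.

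EAF2 was low in both states without inhibitor. Control cells with DMSO measured 0.967, 1.01 and 1.94 CPM, and senescent cells with DMSO 0.617, 0.560 and 0.440 CPM. With IMP1088, control cells measured 4.31, 3.47 and 4.66 CPM and senescent cells 13.4, 14.3 and 12.4 CPM. With DDD86481 the values were 3.50, 2.63 and 3.65 CPM in control and 9.88, 11.9 and 9.50 CPM in senescent cells. No library with inhibitor overlapped the DMSO libraries of its state. The senescent cells thus passed from the lowest group, with 8 to 10 counts a library, to the 2 highest.

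In control cells, the state that did not choose it, EAF2 rose by 1.69 ± 0.23 (log2 fold change ± SE) with IMP1088 (edgeR adjusted p = 1.06e-05) and by 1.35 ± 0.23 with DDD86481 (edgeR adjusted p = 0.000156), or 3.23-fold and 2.56-fold. Without control DMSO replicate 3, whose 1.94 CPM was the highest of its group, the log2 fold changes were 2.06 and 1.72 (edgeR adjusted p = 4.11e-07 and 7.28e-06). In the fit of all libraries the values ranked as the 118th and 207th highest of the 14341 log2 fold changes. In senescent cells the log2 fold changes were 4.63 ± 0.26 and 4.27 ± 0.26, or 24.7-fold and 19.3-fold, at ranks 21 and 27. The senescent value exceeded the control value by 2.93 ± 0.37 with IMP1088 and 2.92 ± 0.37 with DDD86481 on the log2 scale. The differences were 2.56 and 2.55 without control DMSO replicate 3. They were not tested because they hold the effect that chose the gene. The rise combined a lower start and a higher end. Against control cells, senescent cells were at -1.24 ± 0.33 with DMSO and at 1.69 ± 0.18 and 1.67 ± 0.19 with IMP1088 and DDD86481. The DMSO value includes control DMSO replicate 3.

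LYPD3 stayed low in control cells with or without inhibitor and was high in senescent cells with an inhibitor. Control cells with DMSO measured 0.806, 0.483 and 0.796 CPM, those with IMP1088 1.05, 1.51 and 1.99 CPM, and those with DDD86481 1.20, 1.23 and 1.54 CPM. Senescent cells with DMSO measured 1.91, 0.872 and 1.43 CPM, which overlapped both inhibitor groups of the control cells. With IMP1088 they measured 18.8, 18.3 and 21.0 CPM and with DDD86481 18.7, 20.0 and 25.5 CPM. All libraries outside these 6 were under 2 CPM.

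In control cells LYPD3 rose by 1.14 ± 0.30 with IMP1088 (edgeR adjusted p = 0.00644) and by 0.94 ± 0.31 with DDD86481 (edgeR adjusted p = 0.0227), or 2.20-fold and 1.92-fold, at ranks 316 and 534. The call with DDD86481 was lost in a fit of only the groups compared (0.0512), and without control DMSO replicate 2 (0.0987) or control DDD86481 replicate 3 (0.0920), all as edgeR adjusted p. Without control DMSO replicate 3 the rises were 1.23 and 1.04 (edgeR adjusted p = 0.00927 and 0.0309). Counts behind these values were low, 12 to 41 per control library. In senescent cells the log2 fold changes were 3.78 ± 0.23 and 3.92 ± 0.23, or 13.7-fold and 15.1-fold. The senescent value exceeded the control value by 2.64 ± 0.40 and 2.98 ± 0.41, and by 2.54 and 2.88 without control DMSO replicate 3, differences that were not tested.

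MFSD2A rose in both states, and its highest level was in senescent cells although its larger fold was in control cells. Control cells with DMSO measured 3.18, 3.82 and 3.68 CPM, those with IMP1088 27.2, 26.1 and 39.7 CPM, and those with DDD86481 41.6, 21.1 and 30.1 CPM. Senescent cells with DMSO measured 14.3, 13.6 and 18.02 CPM, those with IMP1088 73.1, 71.6 and 66.4 CPM, and those with DDD86481 61.3, 61.8 and 77.8 CPM. The inhibitor libraries lay above the DMSO libraries of their state in all cases. Those of the senescent cells also lay above every control library, a separation whose share over all genes was not determined.

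In senescent cells, the state that did not choose it, MFSD2A rose by 2.20 ± 0.20 with IMP1088 (edgeR adjusted p = 3.48e-08) and by 2.13 ± 0.20 with DDD86481 (edgeR adjusted p = 6.22e-08), or 4.59-fold and 4.37-fold, at ranks 177 and 167. In control cells the log2 fold changes were 3.12 ± 0.22 with each inhibitor, or 8.70-fold and 8.69-fold. The senescent value was below the control value by 0.92 and 0.99 on the log2 scale (differences of -0.92 ± 0.29 and -0.99 ± 0.29, or -0.95 and -1.02 without control DMSO replicate 3). On the linear scale the order turned: the inhibitor added 27.5 ± 4.37 CPM (SE) in control and 55.05 ± 2.46 CPM in senescent cells with IMP1088, and 27.4 ± 5.96 and 51.7 ± 5.59 CPM with DDD86481. The senescent cells began higher, by 2.11 ± 0.23 on the log2 scale with DMSO. Neither difference was tested.

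UNC13A was near the detection limit in control cells with DMSO, where the 3 libraries held 7, 6 and 0 counts (0.282, 0.241 and 0 CPM). The control cells measured 2.11, 1.74 and 1.51 CPM with IMP1088 and 3.29, 1.96 and 1.73 CPM with DDD86481. Senescent cells measured 26.0, 24.9 and 27.1 CPM with DMSO, 40.2, 39.5 and 45.7 CPM with IMP1088 and 40.3, 34.9 and 50.4 CPM with DDD86481. Every senescent library lay above every control library. The share of all genes that separate in this way was not determined, and 68.5% of genes tested differed between the states with DMSO. The inhibitor libraries again lay above the DMSO libraries of their state.

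In senescent cells UNC13A rose by 0.68 ± 0.18 with IMP1088 (edgeR adjusted p = 0.00360) and by 0.69 ± 0.18 with DDD86481 (edgeR adjusted p = 0.00371), or 1.61-fold with each. These were ranks 1684 and 1623, so 11.7% and 11.3% of the genes tested had a higher log2 fold change. In control cells the log2 fold changes were 3.22 ± 0.43 and 3.60 ± 0.41, or 9.30-fold and 12.1-fold, and without control DMSO replicate 3, the library that held no count, they were 2.74 and 3.11. The senescent value was below the control value, at -2.53 ± 0.48 and -2.91 ± 0.47, or -2.05 and -2.43 without control DMSO replicate 3. In CPM the order was again the other way: the inhibitor added 1.61 ± 0.20 (SE) in control and 15.8 ± 2.08 in senescent cells with IMP1088, and 2.15 ± 0.49 and 15.9 ± 4.58 with DDD86481. Between the states with DMSO the log2 difference was 7.08 ± 0.32, with control DMSO replicate 3 and its absent count included. None of these differences between the states was tested.

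Neuronal markers were followed beside UNC13A. The summed level of 10 such genes was 245 to 306 CPM in control and 538 to 620 CPM in senescent cells with DMSO, and with an inhibitor 107 to 123 and 339 to 383 CPM. TUBB3 made up most of it, with group means between 89.0 and 447 CPM, and ELAVL3 stayed under 0.1 CPM on average in every group. The members did not all follow the sum. In senescent against control cells with DMSO, group means were lower for SNAP25 (0.918 against 5.17 CPM) and GAP43 (1.61 against 9.65 CPM). With an inhibitor, means were higher in senescent cells for SNAP25 (4.70 and 3.28 CPM) and NEFM (35.9 and 37.7 against 28.2 CPM with DMSO). In control cells they were higher with both inhibitors for SYP (0.627 and 0.729 against 0.344 CPM), SNAP25 (6.06 and 5.31 against 5.17 CPM) and ELAVL3. With DDD86481 alone they were also higher there for MAP2 (1.60 against 1.34 CPM) and NEFM (3.69 against 3.57 CPM). The list's part in the UNC13A values was not tested.

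**Figure D2:**
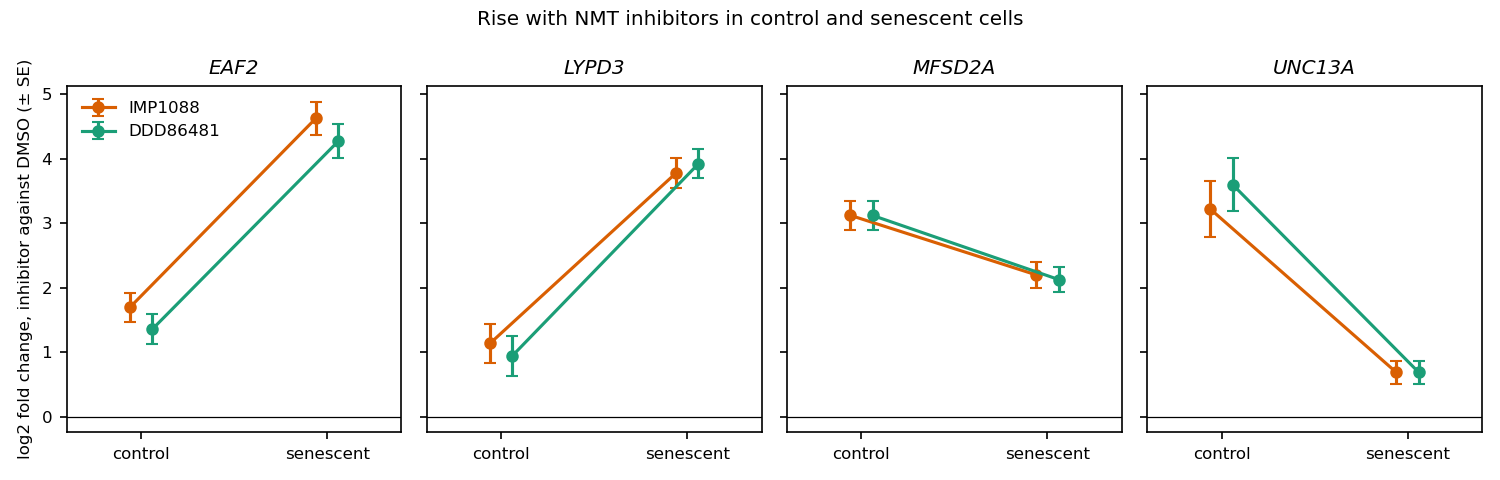
Log2 fold change of inhibitor against DMSO (± SE, 3 libraries a group) in control and senescent cells for each gene and inhibitor; lines join the states. EAF2 and LYPD3 climb by 2.64 to 2.98 from control to senescent cells, MFSD2A falls by less than 1 and UNC13A is lower in senescent cells (-2.53 and -2.91).

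All 4 genes passed the test in the state that did not choose them, with each inhibitor. As background, 16.3% of all genes tested were called higher with IMP1088 and 17.8% with DDD86481 in control cells, and 20.6% and 20.1% in senescent cells. All 3 inhibitor libraries lay above all 3 DMSO libraries for the 4 genes in every comparison, as they did for 20.1% and 21.4% of genes in control cells and for 28.1% and 24% in senescent cells (IMP1088 first). The median log2 fold change of all genes was between -0.04 and 0 in these 4 comparisons. In all, 71 genes were at least 8-fold higher with both inhibitors in senescent cells, and 30 of them were less than 2-fold higher with both in control cells. In control cells 23 genes reached 8-fold with both, of which 4, UNC13A among them, stayed under 2-fold with both in senescent cells, and 10 genes reached 8-fold in both states. EAF2 and LYPD3 stood among the 71 and MFSD2A and UNC13A among the 23. These counts include the effects that chose the genes and are given as a description. Over all genes the senescent minus control difference passed for 26.2% with IMP1088 and 30.3% with DDD86481, from which nothing is read for the 4 genes.

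**Figure D3:**
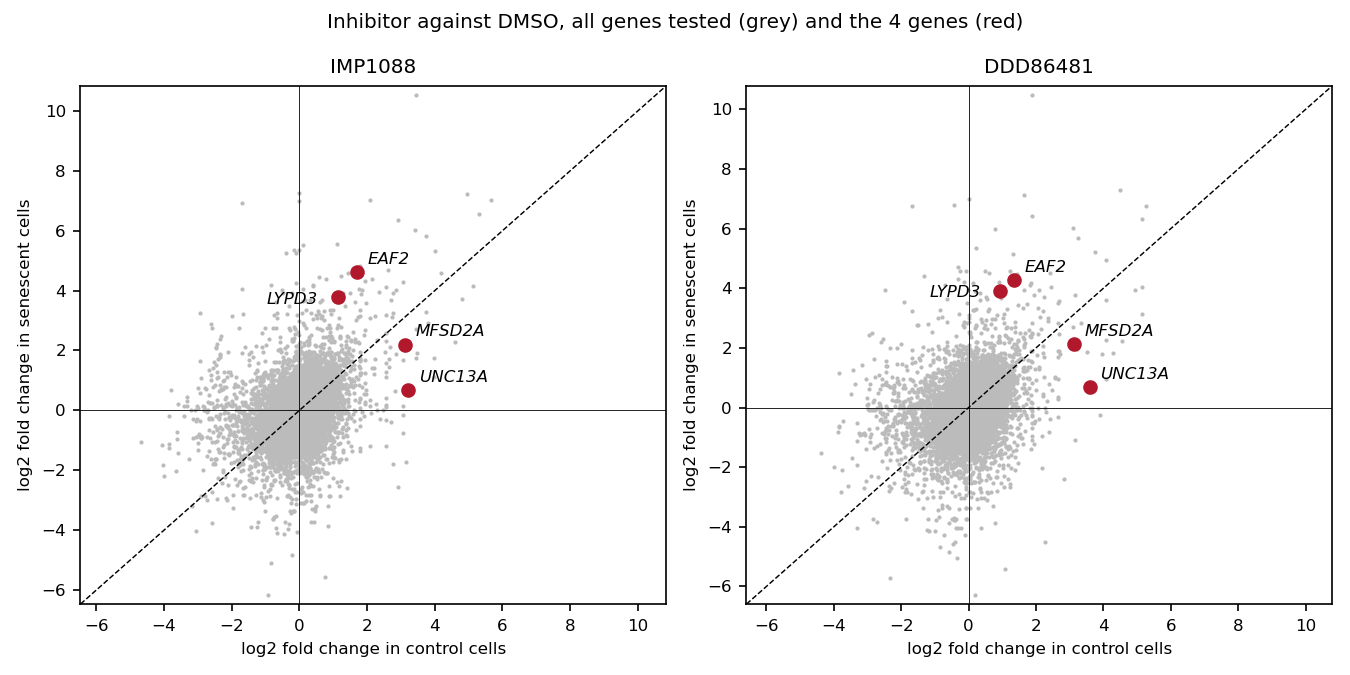
Log2 fold change of each inhibitor against DMSO in control cells (horizontal) and senescent cells (vertical) for the 14341 genes tested (grey) with the 4 genes in red; the dashed line marks equal change. EAF2 and LYPD3 lie above the line and MFSD2A and UNC13A below it, all with a rise in both states.

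The order of the 6 group means differed from gene to gene. For EAF2, from low to high, it was senescent DMSO, control DMSO, control DDD86481, control IMP1088, senescent DDD86481 and senescent IMP1088, with overlapping libraries only between the 2 control inhibitor groups. For LYPD3 it was control DMSO, control DDD86481, senescent DMSO, control IMP1088, senescent IMP1088 and senescent DDD86481, and of these neighbours the second and the third, the third and the fourth, and the last 2 overlapped. For MFSD2A it was control DMSO, senescent DMSO, control DDD86481, control IMP1088, senescent DDD86481 and senescent IMP1088, with overlap between the 2 inhibitor groups of each state. For UNC13A all 3 control groups came first, and the 2 inhibitor groups overlapped in each state. How large a share of all genes separates between neighbouring groups in these ways was not determined. These orders include the effects that chose the genes and are given as a description.

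The genes most like each of the 4 were found by Pearson correlation of log2 CPM over the 18 libraries, which fall into 6 groups and share each treatment, so the coefficients describe mainly the group pattern. For EAF2 these were ARL1 (r = 0.987), a small GTPase of the Golgi, MMUT (0.987), the mitochondrial methylmalonyl-CoA mutase, and PLPP5 (0.986), a lipid phosphatase. Each was lowest in senescent cells with DMSO and highest in senescent cells with IMP1088, as EAF2 was, with a narrower range: MMUT ran from 32.5 ± 1.62 to 77.1 ± 1.20 CPM (SD, n = 3). For LYPD3 they were APOA4 (0.983), an apolipoprotein, ERLEC1 (0.981), a lectin of the endoplasmic reticulum, and UTP6 (0.979), a ribosome assembly factor. APOA4 had no count in the 6 DMSO libraries, which allows up to 0.187 CPM in any one of them. It averaged 0.0621 and 0.0156 CPM in control cells with IMP1088 and DDD86481, and reached 9.46 ± 0.52 and 9.22 ± 2.00 CPM (SD, n = 3) in senescent cells with IMP1088 and DDD86481.

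For MFSD2A the most similar genes were SPTY2D1 (0.977), a histone chaperone, PRKCSH (0.974), the beta subunit of glucosidase II, and OSBP (0.969), an oxysterol-binding lipid transfer protein. OSBP ran from 85.9 ± 15.1 CPM in control cells with DMSO to 231 ± 7.77 CPM in senescent cells with IMP1088 (SD, n = 3). For UNC13A they were POMT2 (0.992), a protein O-mannosyltransferase, GAK (0.991), a kinase of clathrin uncoating, and EDEM1 (0.991), a factor of glycoprotein degradation in the endoplasmic reticulum. EDEM1 averaged 65.3 ± 6.96, 121 ± 7.79 and 133 ± 15.3 CPM (SD, n = 3) in control cells with DMSO, IMP1088 and DDD86481, and 245 ± 17.2, 318 ± 23.6 and 331 ± 27.4 CPM in senescent cells. By Spearman correlation, MMUT and ARL1 stayed among the first 3 for EAF2, and the first 3 for the other members were all different genes. Among themselves the 4 correlated with Pearson r from 0.39 (EAF2 and UNC13A) to 0.82 (EAF2 and LYPD3) over the same libraries. Taken on deviations from the group means, the coefficients ran from -0.72 (EAF2 and UNC13A) and -0.23 (LYPD3 and UNC13A) to 0.27 (EAF2 and MFSD2A).

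The genes next to each member on the chromosome were examined by a rule set after the values were seen. Next to EAF2, SLC15A2, the peptide transporter PEPT2, lies on the same strand 7874 bases beyond its end. SLC15A2 measured 0.443, 0.241 and 0.249 CPM in control cells with DMSO, 1.61, 0.757 and 0.923 CPM with IMP1088 and 1.57, 0.728 and 1.07 CPM with DDD86481. In control cells it rose by 1.77 ± 0.47 (edgeR adjusted p = 0.00624) and 1.82 ± 0.47 (edgeR adjusted p = 0.00493). In senescent cells with DMSO it measured 0, 0.0623 and 0.0549 CPM, all under the floor of 3 counts, and with IMP1088 1.10, 0.391 and 0.785 CPM and with DDD86481 1.04, 0.940 and 0.368 CPM. It passed the test there too (edgeR adjusted p = 0.000409 and 0.000358), and no fold is given against a group at so few counts. The libraries were made with a directional kit and the study's methods state a stranded alignment, while the strand setting of the counting step is not given in the sources used here.

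IQCB1, a ciliary protein gene that starts 148 bases from EAF2 on the opposite strand, differed less. It measured 21.1 ± 0.62, 23.7 ± 1.10 and 21.8 ± 1.60 CPM (SD, n = 3) in control cells with DMSO, IMP1088 and DDD86481, and 10.8 ± 0.83, 16.3 ± 2.15 and 13.8 ± 3.05 CPM in senescent cells. In senescent cells it rose by 0.59 ± 0.14 with IMP1088 and 0.36 ± 0.14 with DDD86481 (edgeR adjusted p = 0.00161 and 0.0464), and in control cells its log2 fold changes of 0.17 ± 0.13 and 0.05 ± 0.13 did not pass (edgeR adjusted p = 0.338 and 0.806). PHLDB3, on the same strand as LYPD3 and 9494 bases away, rose by 0.83 ± 0.14 with each inhibitor in senescent cells (edgeR adjusted p = 6.91e-05 and 7.01e-05) and measured 0.27 ± 0.14 with each in control cells (edgeR adjusted p = 0.151 and 0.152). The actin regulator CAP1 beside MFSD2A fell in all 4 comparisons, with log2 fold changes from -0.52 to -0.45, and COLGALT1 beside UNC13A fell by 0.36 and 0.35 on the log2 scale in senescent cells. MYCL and MAP1S passed in no comparison, and TEX101 was not tested.

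Relatives and partners of EAF2 moved in both directions. Of 25 genes of the ELL and elongation complexes, all tested, 6 rose and 1 fell with IMP1088 and 9 rose and 2 fell with DDD86481 in control cells, while in senescent cells 6 rose and 5 fell with IMP1088 and 5 rose and 6 fell with DDD86481. Their median log2 fold changes were 0.06, 0.02, 0.15 and 0.06 in the same order. Calls in either direction made up 33.7%, 36.6%, 44.4% and 43.2% of all genes tested. EAF1, the closest relative, passed only as a fall with DDD86481 in senescent cells. CCNT1, the cyclin of the elongation kinase P-TEFb, rose in all 4, by 0.95 ± 0.14 and 1.03 ± 0.14 in control and by 0.71 ± 0.14 and 0.65 ± 0.14 in senescent cells. NELFCD, a subunit of the pausing factor NELF, fell in all 4, by 0.33 and 0.35 in control and 0.69 and 0.71 in senescent cells on the log2 scale, and its call with IMP1088 in control cells was lost in a fit of only the groups compared (edgeR adjusted p = 0.0512). HEXIM1, which inhibits P-TEFb, rose by 0.66 ± 0.11 and 0.87 ± 0.11 in senescent cells, and AFF3, a scaffold of elongation complexes, fell there by 0.93 and 0.84 on the log2 scale. Over all genes, 4069 and 4120 were called in control cells (IMP1088 first) without control DMSO replicate 3, against 4829 and 5242 with it. The number of list genes called in either direction rested in part on single libraries. It was 12 in place of 7 with IMP1088 in control cells without control DMSO replicate 1, and 5 without control DMSO replicate 3. It was 6, 6 and 7 in place of 11 with DDD86481 in control cells without control DMSO replicate 3, control DDD86481 replicate 1 or control DDD86481 replicate 3. In senescent cells it was 6, 7 and 7 in place of 11 with IMP1088 without senescent DMSO replicate 1, senescent IMP1088 replicate 1 or senescent IMP1088 replicate 3, and 7 in place of 11 with DDD86481 without senescent DDD86481 replicate 1.

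Beside LYPD3, 29 symbols of LY6/uPAR relatives, AGR proteins and laminin subunits were listed. Of these, 27 were rows of the count table and 11 were tested. The other 18 symbols, the AGR genes AGR2 and AGR3 among them, were not tested here. In control cells 2 rose and 6 fell with IMP1088 and 2 rose and 7 fell with DDD86481. In senescent cells 2 rose and 3 fell with IMP1088 and 2 rose and 4 fell with DDD86481. Among all genes tested, 33.7% and 36.6% were called in control and 44.4% and 43.2% in senescent cells, with 16.3%, 17.8%, 20.6% and 20.1% called higher. Without control DMSO replicate 3, 7 and 8 of the 11 were called in control cells. Over all genes, 4069 and 4120 were called there without it, against 4829 and 5242 with it. The medians of the list were -0.57, -0.57, -0.10 and -0.21. LYPD1, a relative that modulates nicotinic receptors, fell in all 4 comparisons, from 23.1 ± 2.81 to 8.55 ± 0.24 and 8.48 ± 0.52 CPM in control and from 5.96 ± 0.91 to 1.17 ± 0.17 and 1.69 ± 0.25 CPM in senescent cells (SD, n = 3). CD59, the complement inhibitor of the same family, also fell in all 4. The laminin subunit gene LAMA1 rose in all 4, by 1.46 ± 0.20 and 1.51 ± 0.20 in control and 1.08 ± 0.21 and 1.09 ± 0.21 in senescent cells. LAMB1 rose in control cells by 0.70 ± 0.12 and 0.74 ± 0.12 and fell in senescent cells by 0.48 and 0.46. PINLYP, an inhibitor of phospholipase A2, fell in control cells by 1.18 and 1.00 on the log2 scale and measured -0.27 and -0.21 in senescent cells without passing. The PINLYP call with DDD86481 (edgeR adjusted p = 0.0214) was lost without control DMSO replicate 2 (0.0544) or 3 (0.0932), or without control DDD86481 replicate 1 (0.0642) or 3 (0.0916).

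Among 30 genes of lysolipid transport and acylation listed beside MFSD2A, 28 were tested, without its relative MFSD2B and SPNS3. In control cells 5 rose and 4 fell with IMP1088 and 6 rose and 3 fell with DDD86481. In senescent cells 4 rose and 8 fell with IMP1088 and 5 rose and 8 fell with DDD86481. The shares over all genes were the same 33.7%, 36.6%, 44.4% and 43.2%. Without control DMSO replicate 3, 6 genes of the list were called with each inhibitor in control cells. Over all genes, 4069 and 4120 were called there without it, against 4829 and 5242 with it. The medians of the list were 0.12, 0.09, -0.10 and -0.01. SPNS1, a transporter of lysophospholipids out of lysosomes, rose in all 4, from 55.5 ± 1.69 to 96.7 ± 5.58 and 95.1 ± 5.26 CPM in control and from 67.1 ± 1.87 to 106 ± 5.71 and 108 ± 7.29 CPM in senescent cells (SD, n = 3). AGPAT5, an acyltransferase of lysophosphatidic acid, rose in all 4 by 0.55 to 0.68. LPCAT4, an acyltransferase of lysophospholipids, fell in all 4, by 0.93 and 0.86 in control and by 1.47 and 1.60 in senescent cells on the log2 scale. MBOAT1, of the same enzyme class, fell in control cells by 0.65 and 0.95 and did not pass in senescent cells, where it was low. Its call with IMP1088 (edgeR adjusted p = 0.0436) was lost by DESeq2 (0.0577), in a fit of only the groups compared (0.107), and without any one of the control DMSO libraries (0.0859, 0.0595 and 0.0830), control IMP1088 replicate 2 (0.229) or control IMP1088 replicate 3 (0.0905). Without control IMP1088 replicate 2, 5 genes of the list were called with IMP1088 in control cells in place of 9.

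Of 43 genes of the UNC13 family and vesicle exocytosis, 38 were tested, without UNC13C and the complexins CPLX1 and CPLX2 among others. In control cells 9 rose and 10 fell with IMP1088 and 8 rose and 7 fell with DDD86481. In senescent cells 10 rose and 14 fell with IMP1088 and 8 rose and 14 fell with DDD86481. Over all genes 33.7%, 36.6%, 44.4% and 43.2% were called. In control cells 13 and 14 genes of the list were called without control DMSO replicate 3. Over all genes, 4069 and 4120 were called there without it, against 4829 and 5242 with it. The medians of the list were 0.04, 0.06, -0.08 and -0.15. RIMS1, a scaffold of the vesicle release site, was at 2.33 ± 0.78 CPM in control and 0.259 ± 0.218 CPM in senescent cells with DMSO, and at 2.43 ± 0.71 and 1.67 ± 0.02 CPM in senescent cells with IMP1088 and DDD86481 (SD, n = 3). CADPS2, a priming factor of dense-core vesicles, rose by 1.21 ± 0.17 and 1.08 ± 0.17 in control and by 2.80 ± 0.22 and 2.43 ± 0.23 in senescent cells. SNAP25, a SNARE protein and also one of the neuronal markers above, rose in senescent cells by 2.33 ± 0.28 and 1.81 ± 0.29, and its log2 fold changes of 0.23 ± 0.21 and 0.04 ± 0.21 in control cells did not pass. RIMS1, CADPS2 and SNAP25 were lower in senescent than in control cells with DMSO (log2 differences of -3.16 ± 0.43, -2.32 ± 0.23 and -2.47 ± 0.27). UNC13A was higher there, and most calls in the list went the same way as UNC13A. Between the states with DMSO, 20 of the 38 passed as a rise with senescence and 7 as a fall. BAIAP3 was among the 20, at 0.93 ± 0.32. The median of the list in that comparison was 0.45, against -0.05 over all genes, of which 68.5% differed in either direction. Without senescent DMSO replicate 1 the RIMS1 rise in senescent cells was 4.00 and 3.47 with IMP1088 and DDD86481, against 3.21 ± 0.43 and 2.67 ± 0.46. The senescent DMSO libraries behind these rises were at 0.0623 to 0.494 CPM, around the floor of 3 counts. The RIMS1 rise in control cells with DDD86481, 0.79 ± 0.27 (edgeR adjusted p = 0.0252), was lost as a call without control DMSO replicate 3 (0.108) or control DDD86481 replicate 1 (0.0566) or 3 (0.137). BAIAP3, a relative of UNC13 proteins, rose in control cells by 1.47 ± 0.30 and 1.42 ± 0.30 and in senescent cells only with DDD86481, by 0.85 ± 0.28; with IMP1088 it measured 0.55 ± 0.29 there. The BAIAP3 call in senescent cells (edgeR adjusted p = 0.0189) was lost without senescent DMSO replicate 2 (0.0538) or 3 (0.0983) or senescent DDD86481 replicate 1 (0.0836). With IMP1088 in control cells, 12 and 10 genes of the list were called in place of 19 without control DMSO replicate 2 or control IMP1088 replicate 1.

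**Figure D4:**
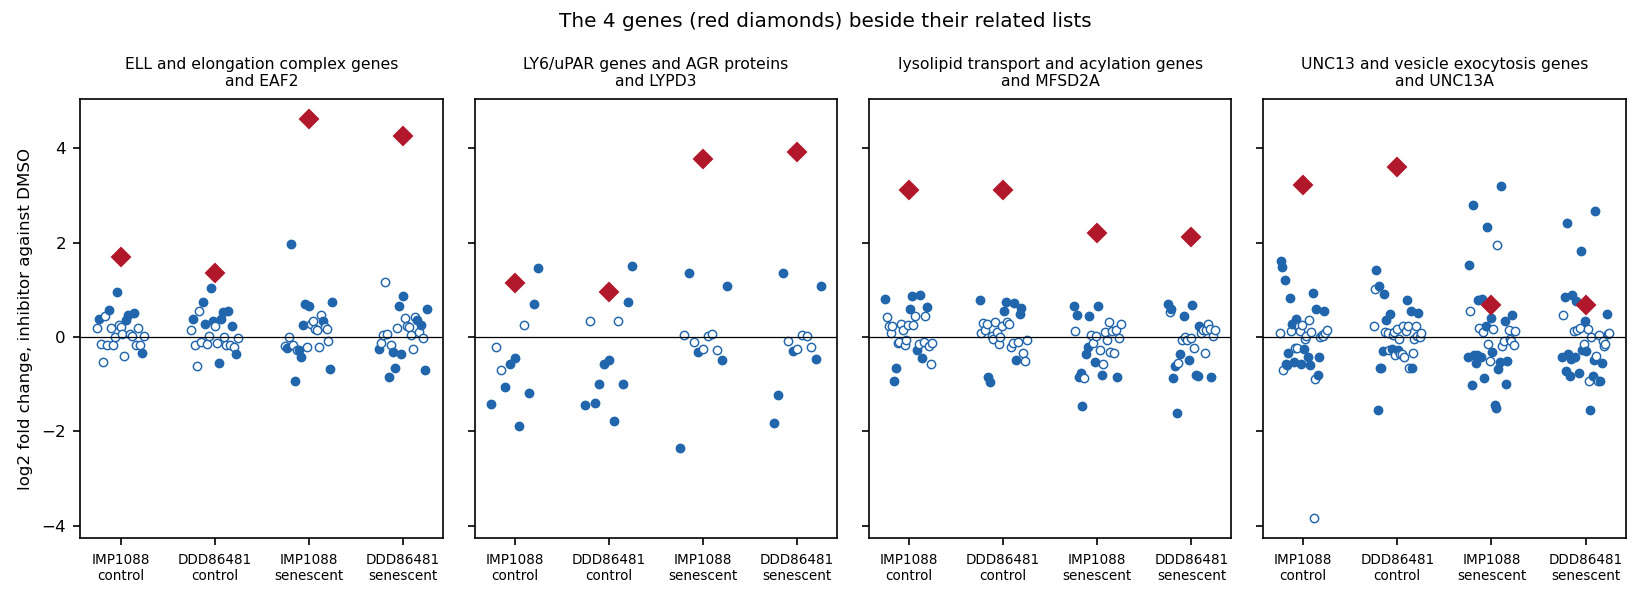
Log2 fold change of inhibitor against DMSO for the tested genes of the 4 related lists (circles, filled where the edgeR adjusted p is under 0.05) and for EAF2, LYPD3, MFSD2A and UNC13A (red diamonds), in 2 states with 2 inhibitors. In senescent cells MFSD2A lies above every gene of its list and genes such as CADPS2 (2.80 with IMP1088) lie above UNC13A. EAF2 and LYPD3 in senescent cells, and MFSD2A and UNC13A in control cells, show the rise that chose them.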

How the data were processed

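Poly(A) RNA of 18 libraries, 3 in each of 6 groups, was sequenced. The authors deposited 1 table of raw counts per gene. The methods of the study name TopHat, hg19 and an Ensembl annotation, whereas the submitters' processing notes name DRAGEN, STAR 2.7.8a, DESeq2 1.32.0 and hg38 without roles, so the build behind the counts is not settled and the positions printed come from RefSeq. Libraries of DDD86481 stand in the table as PCLX001, the second name in the labels. The libraries were directional, and the study describes its 3 replicates a group as independent experiments; the labels do not add how the cultures were separated.

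Counts were analysed in R 4.3.3 with edgeR 4.0.16: TMM scaling, filterByExpr, 1 quasi-likelihood fit of all 18 libraries with a mean per group, and Benjamini-Hochberg adjustment over all 14341 genes with a threshold of 0.05. An SE is the log2 fold change divided by the root of the F statistic. Correlations used log2 CPM with a prior count of 2. The script was tested on simulated data. The 4 genes and the lists were chosen with earlier results of these data known. From each list, up to 4 genes were named, those with the largest mean absolute log2 fold change over the 4 inhibitor comparisons among genes passing in at least 1 and averaging at least 1 CPM, and 3 similar genes were named for each member. Genes named outside this rule (EAF1, CD59, the untested genes and the chromosomal neighbours) were chosen after values were seen. Deviations from group means correlated over 0.1 for all 3 replicate numbers only between control DMSO and control IMP1088 (0.394, 0.123 and 0.231). In the other pairs of groups compared, the coefficients ran from -0.0184 to 0.170. Whether the replicate numbers pair libraries of all groups was not tested, and the main fit did not use them. Alternatives were RLE and upper quartile scaling, no filter, DESeq2 1.42.0, a replicate block, a fit of the compared groups alone and leaving out each library.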

Additional observations from a re-analysis of the deposited data

Results flagged for a closer look

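The effect of the inhibitors differed between the states for 7 genes of the related lists, by the test of the senescent minus control difference of log2 fold changes (edgeR, adjusted over all genes, of which 26.2% passed with IMP1088 and 30.3% with DDD86481). These genes were named for their effects in the same libraries, so the differences are partly selected.

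RIMS1 rose further in senescent cells, by 2.27 ± 0.53 with IMP1088 (adjusted p = 0.00417) and 1.88 ± 0.55 with DDD86481 (adjusted p = 0.0149), from a senescent DMSO level of 0.0623 to 0.494 CPM that lies around the floor of 3 counts; without senescent DMSO replicate 2 the DDD86481 difference was 1.45 (adjusted p = 0.0602). CADPS2 differed by 1.58 ± 0.29 and 1.34 ± 0.29, and SNAP25 by 2.10 ± 0.35 and 1.77 ± 0.36. LAMB1 differed by -1.18 ± 0.17 and -1.20 ± 0.17, with a rise in control and a fall in senescent cells. LPCAT4 fell further in senescent cells, with differences of -0.54 ± 0.15 and -0.746 ± 0.147. HEXIM1 differed by 0.463 ± 0.148 and 0.640 ± 0.148, and the call with IMP1088 was lost without control DMSO replicate 2, control IMP1088 replicate 3, senescent DMSO replicates 1 or 2, or senescent IMP1088 replicate 1 (adjusted p from 0.0571 to 0.0712). NELFCD differed by -0.356 ± 0.125 (adjusted p = 0.0405) and -0.353 ± 0.125 (adjusted p = 0.0383), and each call was lost in 8 of 12 fits without 1 library, with adjusted p up to 0.144 and 0.120 over all alternatives. Without control DMSO replicate 3, the library that stood apart, the differences of these 7 genes kept their sign and passed with each inhibitor. EAF2, LYPD3, MFSD2A and UNC13A received no such test.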

How the results depend on the processing

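For EAF2 in control cells and for MFSD2A and UNC13A in senescent cells, and for LYPD3 with IMP1088 in control cells, direction and call held under every alternative run, with adjusted p up to 0.00561 and 0.0154 for EAF2 (IMP1088 and DDD86481), 1.26e-06 and 2.01e-06 for MFSD2A, 0.0216 and 0.0282 for UNC13A and 0.0443 for LYPD3. LYPD3 with DDD86481 in control cells was 0.936 (adjusted p = 0.0512) in a fit of only the groups compared, and ran from 0.734 to 1.08 with 1 library left out. The senescent minus control difference of EAF2 ran from 2.56 to 3.12 with IMP1088 and from 2.55 to 3.11 with DDD86481 with 1 library left out, lowest without control DMSO replicate 3, and that of MFSD2A with DDD86481 from -1.16 to -0.684, weakest without control DDD86481 replicate 1. With a replicate block the LYPD3 value with DDD86481 was 0.925, and the block changed no call of the 4 genes.

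Fitting each pair of groups alone gave 2716 and 2842 calls in control cells with IMP1088 and DDD86481, against 4829 and 5242, but 7841 and 6086 in senescent cells, against 6374 and 6189. In that fit, 4 and 3 genes of the ELL list and 10 and 7 of the UNC13 list were called in control cells with IMP1088 and DDD86481. With 1 library left out, calls in the ELL list ranged from 5 to 12 and 6 to 13 in control cells and from 6 to 10 and 7 to 11 in senescent cells, those in the lysolipid list with IMP1088 in control cells from 5 to 11, and those in the UNC13 list there from 10 to 19. Reversals were seen in values that had not passed the test. SNAP25 with DDD86481 in control cells was -0.0258 with upper quartile scaling and ran from -0.0512 to 0.156 with 1 library left out. With 1 library left out, AFF3 in control cells ran from -0.388 to 0.0731 with IMP1088 and from -0.331 to 0.130 with DDD86481, MBOAT1 with DDD86481 in senescent cells from -0.867 to 0.0823, and the MBOAT1 difference between states with IMP1088 from -0.609 to 0.412. The causes were not tested. Counts were low in the DMSO libraries of UNC13A (0 to 7, control), EAF2 (8 to 10, senescent) and LYPD3 (12 to 20, control).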
